A study of Mus musculus with 30 samples.

Results

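Ankrd1, Xirp1, Fhl1, Fhl2, Csrp3 and Ldb3 encode proteins of the Z-disc and the LIM domain family that are known for their response to stretch and load in the heart. They are 6 of the 8251 genes that an Affymetrix MG_U74Av2 array names by a single symbol, and were taken as all probe sets whose only gene symbol is one of these 6. That gave 8 probe sets of 12422 tested: 3 for Fhl1 (97498_at, 97499_at and 97500_g_at) and 1 for each other gene. The Entrez number of all 8 still leads to the same symbol.

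The arrays measured RNA from the left ventricle of C57BL/6 mice aged 2 months. Sex, diet (soy-based or casein-based) and genotype (wild type or HCM) were crossed, which makes 8 groups. There were 4 arrays in 6 of the groups and 3 in the remaining pair, male soy HCM and female soy HCM, so 30 in all, and the RNA of 2 animals was pooled for each array. No group is named as having received any other agent. The labels write HCM without spelling it out, and they name no mutated gene, promoter or transgene for it. P-values below measure the spread between these pooled samples. Because the tissue is bulk, fewer cells of a type and less RNA per cell cannot be told apart.

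The Z-disc is the protein lattice that anchors the thin filaments and titin at each end of the sarcomere, and it also serves as a site where mechanical load is sensed. Ankrd1 (cardiac ankyrin repeat protein) binds titin and can also act in the nucleus. Xirp1 (Xin) binds actin at the intercalated disc. Fhl1 and Fhl2 consist of LIM domains, zinc-binding modules that join proteins to one another, and both bind titin. Csrp3 (muscle LIM protein) and Ldb3 (Cypher or ZASP, with PDZ and LIM domains) hold Z-disc proteins together.

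The promoter windows of these genes are shown as background, and their part in the differences below was not tested. The reference table (RefSeq, GRCm38.p6) held 9 windows for 5 of the 6 genes, each from 250 bases before to 50 bases after a transcript start. Of the motifs searched, capitals mark CATTCC (the M-CAT element, bound by TEAD factors), AGATAA (read by GATA factors), the CArG box of SRF and the MEF2 site, all on both strands. The letters TATAAA of the TATA box were searched on the sense strand. The Ankrd1 window lies at chr19:36119795-36120094 (minus strand), Fhl1 at chrX:56779433-56779732 (plus), Fhl2 at chr1:43196712-43197011 (minus) and Ldb3 at chr14:34588632-34588931 (minus).
Ankrd1: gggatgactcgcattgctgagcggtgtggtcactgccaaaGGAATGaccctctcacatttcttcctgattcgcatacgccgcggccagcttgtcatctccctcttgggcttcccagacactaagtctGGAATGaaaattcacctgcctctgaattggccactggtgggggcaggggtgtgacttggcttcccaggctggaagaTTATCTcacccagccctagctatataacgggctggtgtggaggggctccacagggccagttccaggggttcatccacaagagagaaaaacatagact
Fhl1: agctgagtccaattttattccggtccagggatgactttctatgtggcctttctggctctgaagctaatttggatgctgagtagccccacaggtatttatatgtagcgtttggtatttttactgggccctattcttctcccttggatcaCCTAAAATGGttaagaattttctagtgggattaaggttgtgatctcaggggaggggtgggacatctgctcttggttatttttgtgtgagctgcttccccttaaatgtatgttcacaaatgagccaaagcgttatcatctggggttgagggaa
Fhl2: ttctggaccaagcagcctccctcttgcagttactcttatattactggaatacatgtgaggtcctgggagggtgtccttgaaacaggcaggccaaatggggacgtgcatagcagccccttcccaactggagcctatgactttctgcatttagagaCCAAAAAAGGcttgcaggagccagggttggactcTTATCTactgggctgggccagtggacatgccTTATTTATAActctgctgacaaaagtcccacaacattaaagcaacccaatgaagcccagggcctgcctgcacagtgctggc
Ldb3: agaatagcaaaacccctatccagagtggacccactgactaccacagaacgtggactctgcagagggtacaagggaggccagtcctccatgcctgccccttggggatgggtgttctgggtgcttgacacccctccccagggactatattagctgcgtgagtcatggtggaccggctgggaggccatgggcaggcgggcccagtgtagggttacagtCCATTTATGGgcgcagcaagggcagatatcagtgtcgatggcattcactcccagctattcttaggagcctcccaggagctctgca
The Ankrd1 window held 2 M-CAT matches, which begin 210 and 123 bases upstream of the start, and a GATA match 47 bases upstream. A CArG match stood 102 bases upstream in Fhl1, 96 in Fhl2 and 35 in Ldb3, and Fhl2 also had a GATA match at 62 and a MEF2 match at 31. Of the second windows, not printed, that of Fhl2 held a CArG match, that of Ldb3 overlaps the first and holds the same CArG match, and that of Fhl1 held none of these letters. Both Csrp3 windows were without a match too. Among all 32851 windows, 14.7% held the M-CAT letters, 11.2% the GATA letters, 1.63% a CArG box, 3.19% a MEF2 site and 8.32% a TATA box. A match is a run of letters and not evidence of binding.

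Some features of the arrays move with the groups. Cardiomyocyte markers were bright, with Myl2, the ventricular myosin light chain, at a mean of 13.39, the highest among the marker genes, while the 11 skeletal muscle markers ran from the 3.3rd percentile of probe sets (Myh1, a fast myosin) to the 94.7th (Ckm, creatine kinase), with Acta1, the skeletal actin that the heart also expresses, above these at a log2 level of 11.17. Of these 11, 3 were higher and 3 lower as the mean HCM effect. All 7 measured left ventricular cardiomyocyte markers passed the test as higher in HCM on soy and as higher on casein in wild type; on casein, 4 were higher and 1 lower in HCM. Their mean log2 value ran from 11.70 to 12.15 on the soy wild-type arrays, 12.31 to 12.41 on soy HCM, 12.36 to 12.55 on casein wild type and 12.50 to 12.65 on casein HCM. The 7 measured smooth muscle and pericyte markers had a mean of 7.78 to 8.10 on the casein HCM arrays and at most 7.60 on the others. The 3' minus 5' difference of the actin control, a sign of RNA quality, was -0.50 to 0.17 on casein HCM and 0.10 to 0.44 on the other arrays. That of GAPDH was 0.05 to 0.33 on casein wild type, -0.11 to 0.12 on casein HCM and -0.16 to 0.03 on soy. The spiked-in control DapX read 7.18 to 8.07 on the 8 casein HCM arrays and at most 4.70 on the other 22. The controls BioD and BioC split the casein wild-type arrays into replicates 1 and 2 of both sexes (BioD minus BioC of 2.17 to 2.44, called set A) and replicates 3 and 4 (0.50 to 0.63, set B). On the other arrays that difference was 2.35 to 2.45 for soy HCM, 1.56 to 1.86 for soy wild type and 1.59 to 1.75 for casein HCM. Every other combination of diet and genotype was taken as a single set, so set and group cannot be told apart for the effects of diet and of HCM. A fit that treats the set as a random effect widens their standard errors by a single correlation for all probe sets (0.179). It cannot separate set from group, so a call that passes there does not tell them apart. The bright end of the arrays also differed: the 99th percentile lay between 10.64 and 11.11 on the 14 soy arrays and between 11.14 and 11.53 on the 16 casein arrays.

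All 6 genes had a bright probe set. Averaged over all arrays, Ldb3, Fhl2 and Csrp3 stood at the 99.3th percentile of probe sets, Ankrd1 at the 98.8th, Fhl1 97498_at at the 95.9th and Xirp1 at the 94.6th. Fhl1 97500_g_at stood at the 87.0th percentile and Fhl1 97499_at at the 9.5th, so the latter was near the dim end. Group means spanned 1.87 log2 units for Ankrd1, more than for 99.6% of probe sets, and 0.94 for Xirp1. They spanned 0.50 to 0.80 for the other bright probe sets and 0.30 for Fhl1 97499_at.

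Ankrd1 was higher in HCM on both diets, and the difference on casein was far larger than on soy. In males on soy the log2 values were 10.86, 10.10, 10.98 and 10.38 on the wild-type arrays and 10.93, 11.22 and 11.14 on the HCM arrays. In females on soy they were 10.49, 10.69, 10.85 and 10.02 in wild type and 11.24, 10.97 and 11.32 in HCM. Thus one of the male wild-type arrays reached into the HCM range, whereas the female groups did not overlap. In males on casein the values were 10.59, 10.08, 10.63 and 10.81 in wild type and 11.92, 12.03, 12.11 and 11.90 in HCM. In females on casein they were 9.92, 9.91, 10.08 and 10.55 in wild type and 12.18, 12.00, 11.84 and 11.78 in HCM. All 8 casein HCM arrays therefore lay above every other array of the series.

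The Ankrd1 difference between HCM and wild type was 0.59 ± 0.14 on soy (log2 difference ± SE, 1.51-fold, limma adjusted p = 0.00283) and 1.65 ± 0.13 on casein (3.13-fold, adjusted p = 5.12e-11). By size, the casein difference ranked 7 and the soy difference 178 among the 12422 probe sets. The difference between the diets was itself past the threshold, at 1.06 ± 0.19 (95% confidence interval 0.67 to 1.44, limma adjusted p = 5.03e-05). Within strata the HCM difference was 0.52 in soy males (adjusted p = 0.0736), 0.66 in soy females (adjusted p = 0.0493), 1.46 in casein males and 1.83 in casein females (adjusted p = 7.51e-07 and 2.06e-08). Of all probe sets, 12.5%, 4.07%, 31.6% and 33.0% passed in these strata. The call in soy females was lost in 22 of the 30 fits that left out an array, with the replicate number as a block (adjusted p = 0.0606), with median centring (0.0585), with array sets as a random effect (0.291) and without the casein HCM arrays (0.102). With array sets as a random effect, the difference on soy was no longer past the threshold (adjusted p = 0.127, where 2.76% of all probe sets passed), while those on casein (adjusted p = 2.54e-07, against 27.3%) and between the diets (adjusted p = 0.00751, against 21.1%) were. Against casein wild-type set A alone the casein difference was 1.84, and against set B alone 1.45.

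In HCM hearts Ankrd1 was higher on casein than on soy by 0.83 ± 0.14 (1.78-fold, limma adjusted p = 8.27e-06). In wild type the difference did not pass, at -0.23 ± 0.13 (adjusted p = 0.149; interval -0.49 to 0.03). With quantile normalization added to the deposited values, the difference in HCM was 0.48 and that in wild type -0.49 (adjusted p = 0.000706), so whether Ankrd1 was lower on casein in wild type depended on the scaling. It depended on the arrays too: the wild-type difference was -0.42 (adjusted p = 0.0286) with set A alone and -0.03 with set B alone. Ordered by their means, the casein HCM groups (11.99 in males, 11.95 in females) came first and did not overlap the soy HCM groups (11.18 in females, 11.10 in males). The 4 wild-type groups followed at 10.11 to 10.58, and each overlapped its neighbour.

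Xirp1 went in opposite directions on the 2 diets. On soy, the male values were 9.15, 8.83, 8.92 and 8.91 in wild type and 9.30, 9.28 and 9.40 in HCM. Female values on soy were 9.06, 9.05, 9.09 and 8.76 in wild type and 9.19, 9.47 and 9.38 in HCM. In both sexes each HCM array on soy was above each wild-type array. On casein, the male values were 9.76, 9.84, 9.98 and 9.97 in wild type and 9.36, 9.39, 9.25 and 9.36 in HCM. Female values on casein were 9.41, 9.50, 9.67 and 9.83 in wild type and 9.15, 9.02, 9.13 and 9.14 in HCM. Here each HCM array was below each wild-type array of its sex.

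On soy Xirp1 was higher in HCM by 0.36 ± 0.07 (1.29-fold, limma adjusted p = 0.000411), and on casein it fell by 0.52 ± 0.06 (adjusted p = 1.42e-07), to 0.70 of the wild-type level. The interaction was -0.89 ± 0.09 (interval -1.08 to -0.69, limma adjusted p = 2.29e-08), and the mean over both diets, -0.08 ± 0.05, did not pass (adjusted p = 0.203). All 4 strata passed in the fit of all arrays: 0.37 in soy males, 0.35 in soy females, -0.55 in casein males and -0.49 in casein females. With array sets as a random effect the adjusted p was 0.0463 on soy, 8.31e-05 on casein and 3.55e-05 for the interaction. The soy strata no longer passed there (0.107 in males and 0.219 in females). The soy male call was also lost with only the arrays compared (adjusted p = 0.145) and in 1 fit that left out an array. That in soy females was lost without the casein HCM arrays (adjusted p = 0.0796) and in 4 fits that left out an array. Within the casein wild type, set A minus set B was -0.24 ± 0.08 (adjusted p = 0.0445, for 13.5% of all probe sets past the threshold), and the casein difference was -0.40 against set A and -0.64 against set B. Without the casein HCM arrays, only the soy difference of 0.36 is left.

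Much of this pattern lay in the wild-type hearts. In wild type Xirp1 was higher on casein than on soy by 0.77 ± 0.06 (1.71-fold, limma adjusted p = 1.71e-10). The difference was 0.94 in males and 0.61 in females (strata in which 37.8% and 24.8% of all probe sets passed). No casein wild-type array overlapped the soy wild-type arrays. In HCM the diet difference was -0.11 ± 0.07 (adjusted p = 0.161). After quantile normalization the wild-type difference was 0.62 and that in HCM was -0.28, past the threshold (limma adjusted p = 0.000116). The wild-type difference thus kept its direction and passed under both scalings. In female HCM alone the diet difference was -0.24 ± 0.10 as deposited (adjusted p = 0.0488, where 43.8% of all probe sets passed), and each casein array was below each soy array. That call was lost in 23 of the 30 fits that left out an array, with the replicate number as a block (adjusted p = 0.0584), with median centring (adjusted p = 0.143) and with array sets as a random effect (adjusted p = 0.138). In the order of means, casein wild type was highest (9.89 in males, 9.60 in females). Female soy HCM, male casein HCM and male soy HCM followed at 9.35, 9.34 and 9.33 and overlapped, female casein HCM lay at 9.11, and the soy wild-type groups were lowest (8.99 and 8.95).

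**Figure D1:**
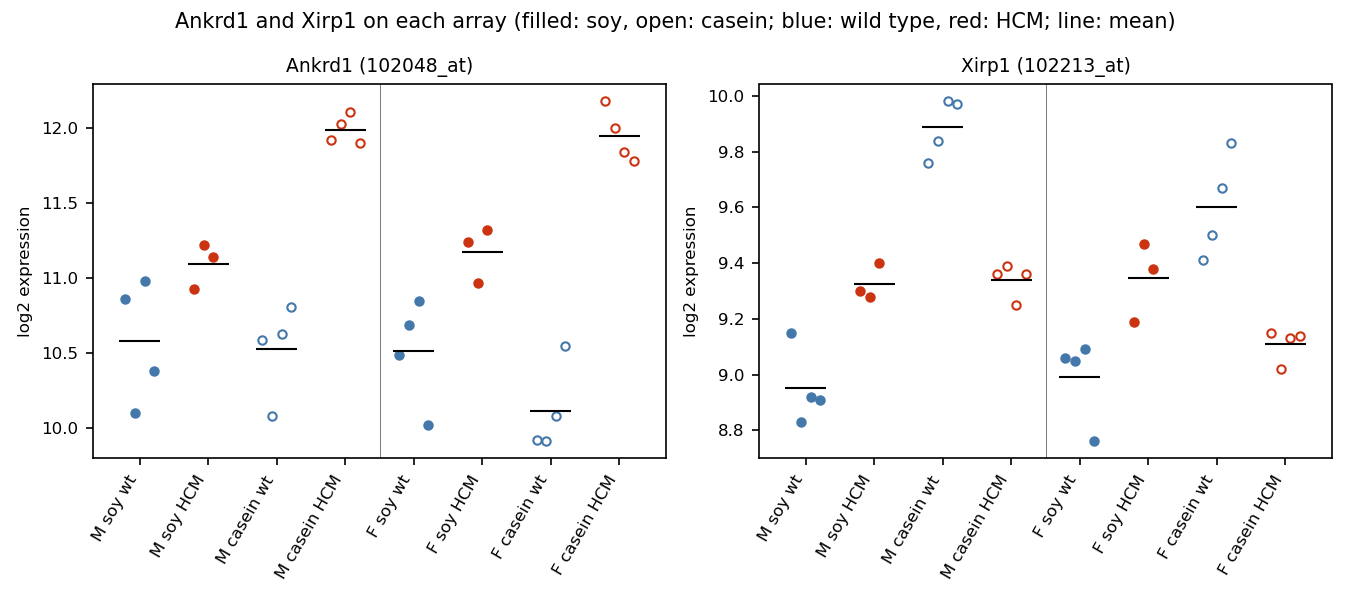
Log2 expression of Ankrd1 and Xirp1 on each of the 30 arrays by group (M, male; F, female; wt, wild type; points are arrays of pooled RNA and lines are group means). The casein HCM arrays stand above all others for Ankrd1, whereas for Xirp1 the HCM arrays lie above wild type on soy and below it on casein.

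Fhl1, by its bright probe set 97498_at, was higher in HCM on casein. In males on casein the values were 9.44, 9.29, 9.53 and 9.62 in wild type and 9.79, 10.02, 9.98 and 9.92 in HCM. In females on casein they were 9.34, 9.48, 9.75 and 9.70 in wild type and 10.28, 10.12, 9.97 and 9.81 in HCM. The HCM arrays lay above the wild-type arrays in both sexes. In males on soy the values were 9.35, 9.22, 9.38 and 9.02 in wild type and 9.35, 9.54 and 9.54 in HCM. In females on soy they were 9.46, 9.49, 9.62 and 9.22 in wild type and 9.63, 9.42 and 9.50 in HCM. On soy the groups overlapped in both sexes.

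The Fhl1 97498_at difference was 0.47 ± 0.08 on casein (1.38-fold, limma adjusted p = 1.19e-05) and 0.15 ± 0.08 on soy (adjusted p = 0.172; interval -0.02 to 0.32). The difference between the diets, 0.31 ± 0.11, passed in the fit of all arrays (limma adjusted p = 0.0234). It did not pass with array sets as a random effect (adjusted p = 0.176), with casein wild-type set B alone (0.18, adjusted p = 0.202) or without male soy HCM replicate 1 (adjusted p = 0.0508). In HCM 97498_at was higher on casein than on soy by 0.49 ± 0.08 (limma adjusted p = 1.07e-05), and the difference in wild type was 0.17 ± 0.08 (adjusted p = 0.0639). After quantile normalization these were 0.26 (adjusted p = 0.00425) and 0.00.

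The 3 Fhl1 probe sets did not agree on diet. Fhl1 97500_g_at fell on casein by 0.43 ± 0.06 (limma adjusted p = 9.79e-07) as the mean over sex and genotype, and it was lower in wild type (-0.49) and in HCM (-0.36). After quantile normalization these differences were -0.50, -0.56 and -0.43, so this direction did not turn with the scaling. The dim probe set 97499_at, annotated to the same transcript record as 97500_g_at, was higher on casein by 0.19 ± 0.04 (adjusted p = 0.000431), with all its values between 3.75 and 4.38. For HCM, 97500_g_at differed by -0.01 ± 0.09 on soy (adjusted p = 0.926) and 0.12 ± 0.08 on casein (adjusted p = 0.239), and 97499_at by -0.02 and 0.00. In the fit of all arrays neither passed an HCM test. With array weights, 97500_g_at passed for HCM in female soy (-0.30, adjusted p = 0.0156) and for HCM by diet (0.27, adjusted p = 0.0208), and its female soy HCM arrays (8.38 to 8.60) all lay below the wild-type arrays. The female soy wild-type values of 97500_g_at were 8.77, 8.72, 8.98 and 8.61, the highest group, and those of female casein wild type 8.15, 8.10, 7.97 and 7.89. Which transcripts each probe set reads was not analysed here.

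In the deposited values Fhl2 differed by diet and little by genotype. Its values on soy were 11.35, 10.87, 11.16 and 11.08 in male wild type and 11.50, 11.31 and 11.40 in male HCM. On casein they were 11.80, 11.52, 11.65 and 11.71 in male wild type and 11.67, 11.70, 11.61 and 11.60 in male HCM. Female values ran from 11.24 to 11.45 on soy and from 11.53 to 11.76 on casein, over both genotypes, so that casein arrays were above soy arrays in each sex and genotype. As deposited, the diet difference was 0.35 ± 0.04 (1.27-fold, limma adjusted p = 5.59e-08), 0.45 in wild type and 0.24 in HCM. After quantile normalization it was -0.06 (adjusted p = 0.186) over all strata, 0.09 in wild type and -0.21 in HCM (adjusted p = 0.00182), so that its direction depended on the scaling.

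The HCM difference of Fhl2 was 0.16 ± 0.06 on soy (limma adjusted p = 0.0562) and -0.04 ± 0.06 on casein (adjusted p = 0.539; interval -0.16 to 0.07). Soy males alone passed, with 0.29 ± 0.09 (adjusted p = 0.0326), a group in which wild-type replicate 2 was the lowest array. That call was lost with array sets as a random effect (adjusted p = 0.194), quantile normalization (0.112), array weights (0.053), only the arrays compared (0.269), no casein HCM arrays (0.0617) and in 5 fits that left out an array. The interaction with diet, -0.21 ± 0.08 (adjusted p = 0.0475), was lost in 20 of the 30 fits that left out an array. With array sets as a random effect it did not pass either (adjusted p = 0.272). After quantile normalization it was -0.30 (adjusted p = 0.00177), with a difference of -0.19 on casein (adjusted p = 0.00222).

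**Figure D2:**
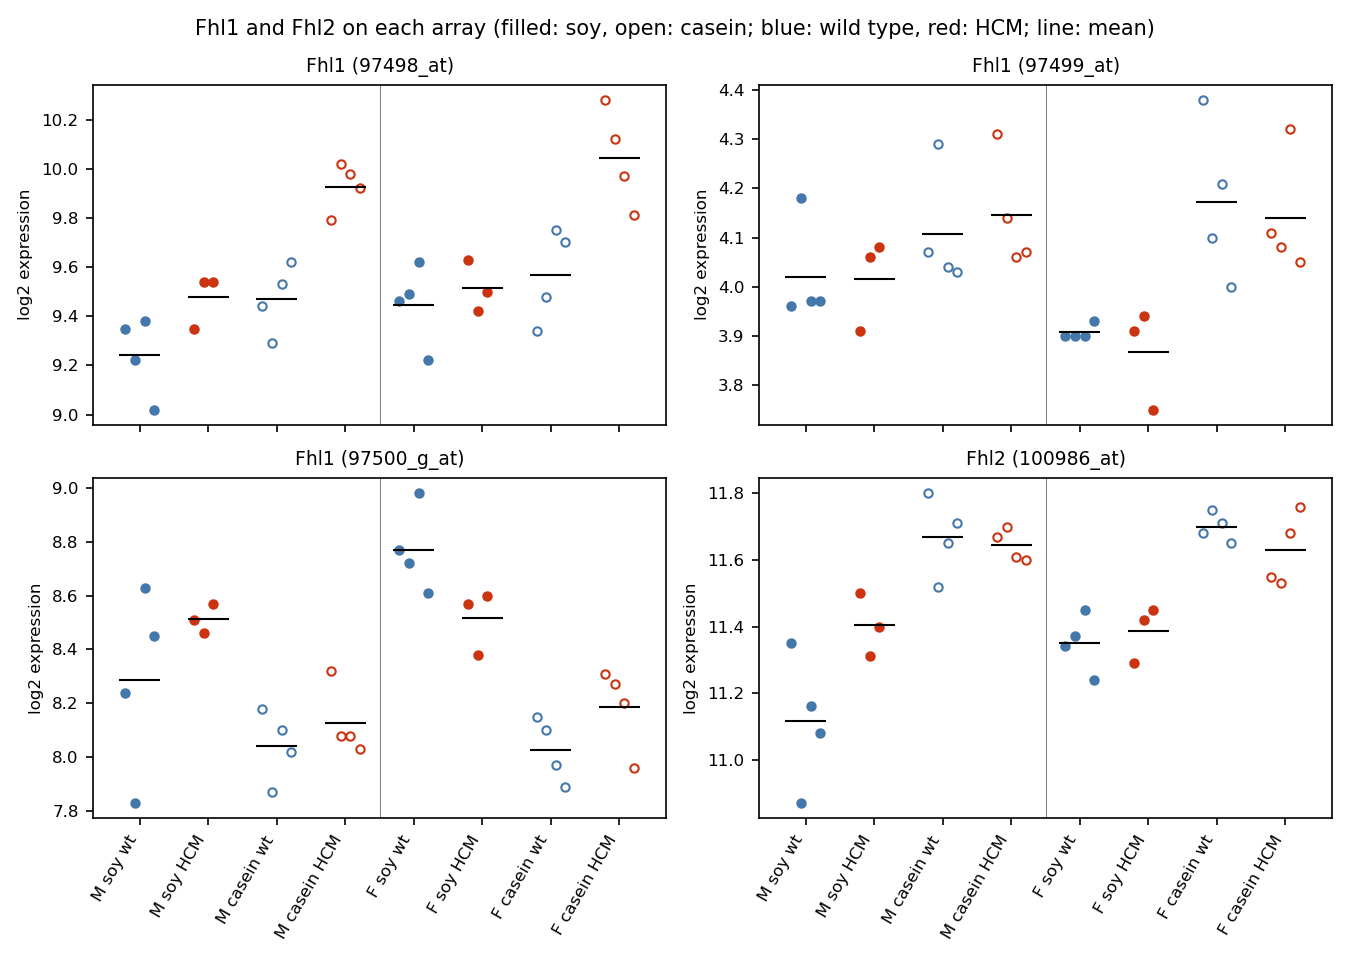
Log2 expression of the 3 Fhl1 probe sets and of Fhl2 on each array by group (M, male; F, female; wt, wild type; lines are group means). Fhl1 97498_at is highest on the casein HCM arrays, Fhl1 97500_g_at is lower on casein than on soy, and Fhl2 is higher on casein, a direction that depends on the scaling.

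Csrp3, whose loss causes dilated cardiomyopathy in mice, passed no HCM test in the fit of all arrays. On soy the male values were 11.43, 10.73, 11.36 and 11.22 in wild type and 11.08, 11.44 and 11.59 in HCM. On casein they were 11.30, 11.56, 11.72 and 11.74 in wild type and 11.70, 11.79, 11.53 and 11.73 in HCM. The groups overlapped on both diets, and in females too HCM overlapped wild type. The HCM difference was 0.16 ± 0.10 on soy (limma adjusted p = 0.242; interval -0.04 to 0.37) and 0.12 ± 0.09 on casein (adjusted p = 0.283; interval -0.07 to 0.32). The mean over both diets was 0.14 ± 0.07 (adjusted p = 0.112), but it passed with casein wild-type set A alone (0.22, adjusted p = 0.0299) and without male soy HCM replicate 1 (adjusted p = 0.0427). Its spread within groups, an SD of 0.201, was above the 0.069 of Ldb3. The diet difference was 0.32 ± 0.07 (1.25-fold, adjusted p = 0.000211) as deposited and -0.08 (adjusted p = 0.198) after quantile normalization, so the diet direction turned with the scaling. Without male soy HCM replicate 1, the diet difference in HCM had an adjusted p of 0.0584. With array sets as a random effect it passed in neither wild type (adjusted p = 0.0658) nor HCM (0.115), and in wild type it did not pass with set A alone (0.20, adjusted p = 0.183).

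Ldb3 had the tightest replicates and a marked diet difference in the deposited values. Male values were 11.31, 11.06, 11.20 and 11.22 in soy wild type and 11.87, 11.84, 11.84 and 11.86 in casein wild type. In HCM males they were 11.25, 11.23 and 11.34 on soy and 11.76, 11.72, 11.76 and 11.75 on casein. Casein arrays were well above soy arrays, and on casein each male HCM array was below each wild-type array. That stratum did not pass as deposited (-0.10, limma adjusted p = 0.206), but did after quantile normalization (-0.18, adjusted p = 0.0203). Female values were 11.47, 11.29, 11.27 and 11.44 in soy wild type and 11.63, 11.80, 11.67 and 11.71 in casein wild type. In HCM females they were 11.13, 11.24 and 11.26 on soy and 11.57, 11.51, 11.56 and 11.61 on casein. Here HCM was below wild type without overlap on both diets. Neither stratum passed in the fit of all arrays, with -0.16 on soy (limma adjusted p = 0.183) and -0.14 on casein (adjusted p = 0.0735). After quantile normalization the female casein difference was -0.31 (adjusted p = 0.000257).

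The Ldb3 diet difference was 0.45 ± 0.03 (1.37-fold, limma adjusted p = 1.21e-12) as deposited and 0.07 (adjusted p = 0.0629) after quantile normalization. In wild type it was 0.50 and 0.15 under these scalings (adjusted p = 0.00476 for the latter), and in HCM 0.41 and -0.02. On casein Ldb3 fell in HCM by 0.12 ± 0.04 (adjusted p = 0.0201), and the difference on soy was -0.04 ± 0.05 (adjusted p = 0.571). With quantile normalization the casein difference was -0.25 (adjusted p = 2.66e-05). It was not past the threshold with array sets as a random effect (adjusted p = 0.163) or against either casein wild-type set alone (adjusted p = 0.062 for A and 0.079 for B).

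**Figure D3:**
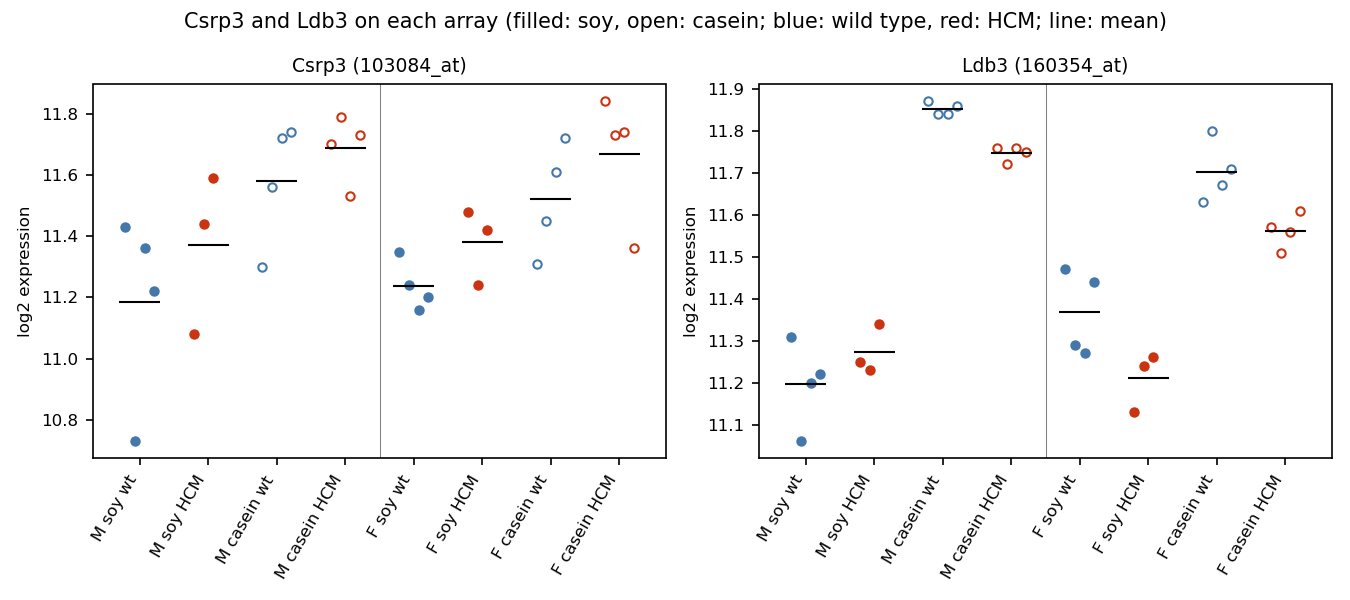
Log2 expression of Csrp3 and Ldb3 on each array by group (M, male; F, female; wt, wild type; lines are group means). Csrp3 groups overlap between genotypes, whereas the 4 male casein wild-type arrays of Ldb3 lie within 11.84 to 11.87, above the male casein HCM arrays. The HCM difference in that stratum did not pass in the fit of all arrays (-0.10, limma adjusted p = 0.206).

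Counted together, the HCM effect as the mean over sex and diet passed for 2 of 8 probe sets, Ankrd1 and Fhl1 97498_at, both higher, where 32.8% of all probe sets tested passed (17.2% higher, 15.6% lower). On soy 2 passed as higher, Ankrd1 and Xirp1, against 24.7% of all (12.3% in each direction). On casein 2 passed as higher (Ankrd1, Fhl1 97498_at) and 2 as lower (Xirp1, Ldb3), against 49.0% (25.0% higher, 24.0% lower). The interaction of HCM with diet passed for 4, 2 in each direction, against 45.2% (23.9% higher, 21.3% lower). These shares of members are near those of the array as a whole. The median HCM difference over the 8 probe sets was 0.16 on soy and 0.06 on casein, beside -0.013 and -0.004 over all probe sets. The markers of cardiomyocytes moved in the same comparisons (7 of 7 higher in HCM on soy, with a median of 0.28). On casein, where Ankrd1 and Fhl1 97498_at were highest in HCM, 5 of 7 smooth muscle and pericyte markers were higher in HCM (median 0.40). Of 8 fibroblast markers 5 were higher and 1 lower there (median 0.32). Among 5 atrial markers 3 were higher in HCM on casein (median 0.39) and 2 lower on soy, with a median interaction of 0.72. Of 8 endothelial markers 3 were lower in HCM on casein and 0 higher. The part of these cells and of RNA quality in the members' differences was not tested.

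**Figure D4:**
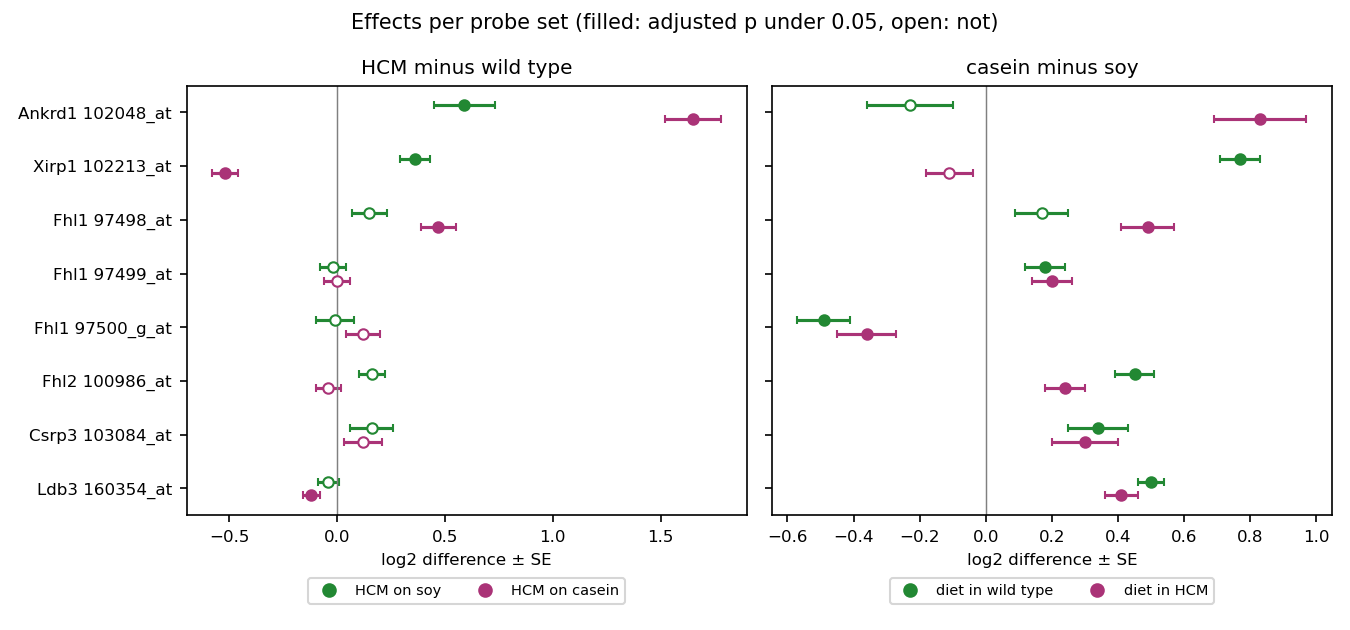
Log2 differences with standard errors for the 8 probe sets, HCM minus wild type on each diet (left) and casein minus soy in each genotype (right). Ankrd1 has the largest HCM difference on casein (1.65), Xirp1 has opposite signs on soy and casein (0.36 and -0.52), and Fhl1 97500_g_at is the only probe set lower on casein in both genotypes with adjusted p under 0.05.

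Diet passed for 8 of 8 probe sets as the mean over strata, 7 higher and 1 lower on casein, where 62.3% of all probe sets passed (29.0% higher, 33.3% lower). In wild type 5 were higher and 1 lower, against 46.0% (20.3% higher, 25.6% lower), and in HCM 6 were higher and 1 lower, against 61.1% (29.8% higher, 31.3% lower). Fhl2, Csrp3 and Ldb3 belong to the brightest 1% of the array, 125 probe sets of which 96 were higher and 9 lower on casein, with a median difference of 0.34. With array sets as a random effect, 7 members passed for the mean (Ankrd1 had an adjusted p of 0.0798), 4 in wild type and 5 in HCM. Fhl1 97499_at (0.138 and 0.0993) and Csrp3 (0.0658 and 0.115) lost their calls in wild type and in HCM. After quantile normalization the median of the bright probe sets was 0.06, and the number of members past the threshold was 4 in place of 8. The shares of all probe sets that passed for diet under these alternatives are not given here, so these member counts are not set against the array. The median over all probe sets was -0.014 as deposited and 0.003 after quantile normalization. The part of the bright-end shift in the diet differences of Fhl2, Csrp3 and Ldb3 was not tested. Fhl1 97500_g_at and the dim Fhl1 97499_at kept their direction and passed under both scalings, over all strata and in each genotype. Xirp1 did so over all strata (0.33 and 0.17) and in wild type. Fhl1 97498_at did so over all strata (0.33 and 0.13) and in HCM (0.49 and 0.26). So did Ankrd1 in HCM (0.83 and 0.48) and Ldb3 in wild type (0.50 and 0.15).

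**Figure D5:**
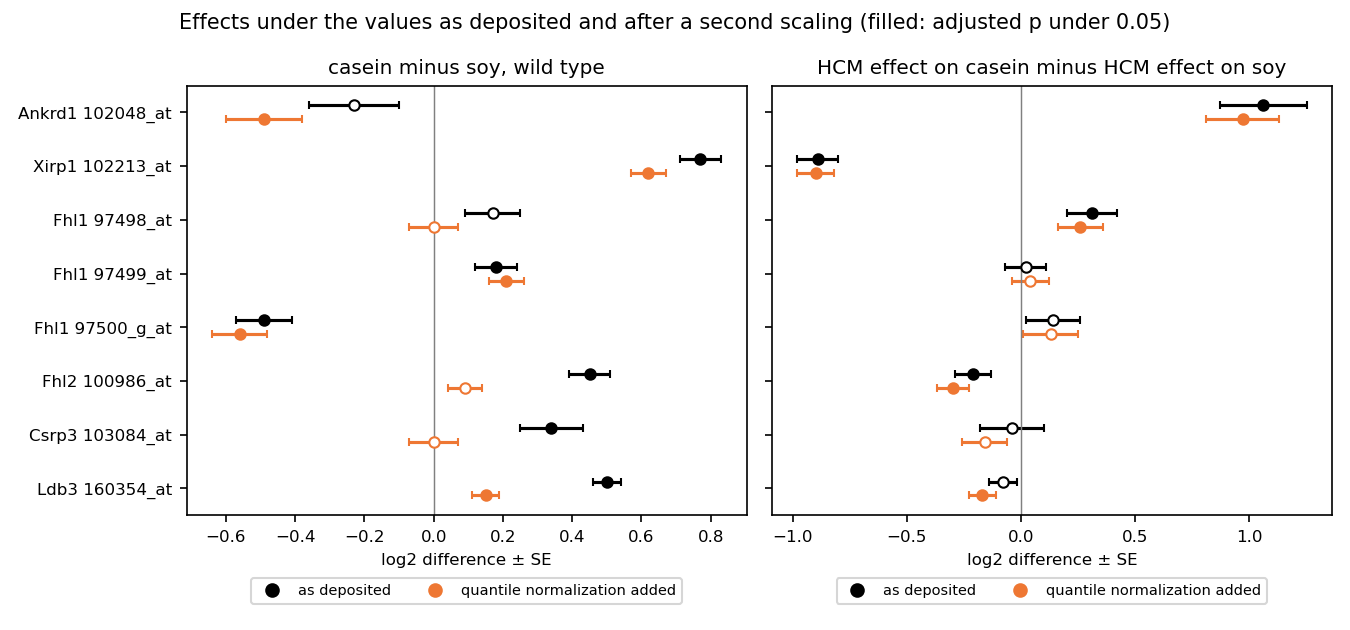
Log2 differences with standard errors for the 8 probe sets in the values as deposited and with quantile normalization added, for casein minus soy in wild type (left) and for the HCM difference on casein minus that on soy (right). Fhl2, Csrp3 and Ldb3 move towards zero on the left (from 0.45, 0.34 and 0.50 to 0.09, 0.00 and 0.15), whereas on the right Ankrd1 goes from 1.06 to 0.97 and Xirp1 from -0.89 to -0.90.

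No member passed a test for sex in the fit of all arrays. In limma, 0 of 8 passed for females against males, where 0.233% of all probe sets did, and 3 had an unadjusted p under 0.05 (Xirp1, Fhl1 97498_at and Fhl1 97500_g_at), beside 9.07% of all probe sets. The count was also 0 with limma array weights and with array sets as a random effect. The member with the largest sex difference in a stratum was Fhl1 97500_g_at in soy wild type, 0.48 ± 0.12 (adjusted p = 0.222), which passed without male soy wild-type replicate 3 (adjusted p = 0.0351). Ankrd1 in casein wild type differed by -0.41 ± 0.18 (adjusted p = 0.682). On casein, Xirp1 in females minus males was -0.29 ± 0.09 in wild type (adjusted p = 0.357) and -0.23 ± 0.09 in HCM (adjusted p = 0.251). The interaction of diet with sex was -0.29 ± 0.09 for Xirp1 (adjusted p = 0.228) and -0.22 ± 0.06 for Ldb3 (adjusted p = 0.199), both with an unadjusted p under 0.05, as had 14.1% of all probe sets. Xirp1 passed this test only with array weights (-0.33, adjusted p = 0.039). Of all probe sets, 0.00% passed for either interaction with sex. For that of HCM with sex the smallest adjusted p was 0.933. Ankrd1 showed 0.26 ± 0.19 there, with an interval of -0.12 to 0.64.

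Other genes of the same structures gave a mixed picture. Of 35 listed Z-disc and titin partners 14 were measured, and as the mean HCM effect 3 were higher and 2 lower, with a median of 0.07 beside -0.008 over all probe sets. Myom1, which crosslinks the M-band, was higher by 0.37 ± 0.06 (limma adjusted p = 7.5e-05), the chaperone Cryab by 0.27, and the calcineurin subunit Ppp3cb by 0.25, while Myoz1, a calsarcin of fast fibres, fell by 0.15. Ankrd2, another muscle ankyrin repeat protein, was lower in HCM on soy, at -0.29 ± 0.08 (adjusted p = 0.00567), but rose on casein by 0.46 ± 0.07 (adjusted p = 3.72e-06). On soy 5 of these 14 were higher and 1 lower, and on casein 3 and 4. Of all probe sets, 17.2% were higher and 15.6% lower as the mean HCM effect, 12.3% each way on soy, and 25.0% and 24.0% on casein. These shares also stand beside the counts of the lists below.

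Of 28 measured LIM domain genes other than the members, 8 were higher and 5 lower as the mean HCM effect. Those with the largest differences were Lima1 (0.32 ± 0.04, limma adjusted p = 2.61e-06), Lmo7 (0.27), Csrp1 (0.24) and Crip1 (0.23). Csrp2, like Csrp3 a cysteine-rich LIM protein, differed by -0.30 on soy (adjusted p = 0.00275) and 0.70 on casein (adjusted p = 1.21e-09). Crip1 did likewise, with -0.41 and 0.86, and Crip2 was -0.57 on casein. On casein 10 of the 28 LIM genes were higher and 6 lower, where 25.0% of all probe sets were higher and 24.0% lower.

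Costameres link the Z-disc to the membrane. The list of costamere and integrin adhesion genes also held genes of junctions between cells, such as Gja1, Dsp and Jup. Of 26 measured, 9 were higher and 1 lower as the mean HCM effect, with a median of 0.12. The largest were the gap junction protein Gja1 (0.38 ± 0.07, limma adjusted p = 0.000241), the sarcoglycan Sgcb (0.37), Ctnnb1 (0.34) and the desmosomal Dsp (0.30). On soy 11 of the 26 were higher and 2 lower, where 12.3% of all probe sets passed in each direction. On casein 8 were higher and 3 lower, where 25.0% of all probe sets were higher and 24.0% lower. Vcl (vinculin) had 0.42 on soy and -0.36 on casein, and Jup (plakoglobin) 0.34 and -0.36. Both were past the threshold each time, in the same directions as Xirp1, and were singled out after their values were seen. The interaction of HCM with diet passed as higher for 7 genes of this list and as lower for 10. Of all probe sets, 23.9% were higher and 21.3% lower in that test.

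Among transcription factors and cofactors of the SRF, MEF2, NKX2-5, GATA4 and YAP pathways, 20 were measured. As the mean HCM effect 4 were higher and 7 lower, among them Mef2a (0.33 ± 0.07, limma adjusted p = 0.000737), Ybx1 (0.30), Wwtr1 (0.28) and Mef2c (-0.25). On soy 6 were higher and 1 lower, beside 12.3% of all probe sets in each direction. On casein 3 were higher and 11 lower, beside 25.0% and 24.0% of all probe sets, with a median of -0.22 for the list. Wwtr1 (TAZ, a partner of TEAD factors) differed by 0.47 on casein, Tead4 by -0.25 and Yap1 by 0.44 on soy. Tead4 and Yap1 were singled out after their values were seen, and a link of these genes to Ankrd1 was not tested. These lists were drawn up with earlier results of these data known, and their counts are descriptions.

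The genes whose 8 group means ran most like those of Ankrd1 were Myh7 (Pearson r = 0.979), Ppa2 (0.972), Nppb (0.971), Vps29 (0.970) and Dda1 (0.970), among 4693 probe sets whose group means ranged over at least 0.5. Myh7, the slow myosin heavy chain, and Nppb, the natriuretic peptide, are both load-associated genes; their HCM differences were 0.70 and 0.77 on soy and 1.30 and 1.43 on casein. For Xirp1 the closest were 2610507B11Rik (0.979), Col9a2 (0.977), Sh3bgrl3 (0.976), Myt1l (0.972) and Smarca4 (0.965). For Fhl1 97498_at they were Eef1a1 (0.995), Selenof (0.995), Leprot (0.984), Tpt1 (0.984) and Rps4x (0.982). The closest to Csrp3 were Mob1b (0.994), the troponin gene Tnni3 (0.993), Stx3 (0.991), Tmem134 (0.989) and the tropomyosin gene Tpm1 (0.988). For Fhl2 the first was Rsrp1 (0.987) and for Ldb3 Dgcr2 (0.996). These are correlations over 8 group means of the same arrays, which share the sets and the bright-end shift described above.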

How the data were processed

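The authors deposited log2 expression values, 1 for each probe set and array. Per the submitters' processing notes, RMA and Expression Console of Affymetrix produced them, with no version or setting stated. Depth has no counterpart on arrays, where the number of arrays limits the precision. Of 12488 probe sets, 66 controls were left out. On the 12422 others and all 30 arrays, limma 3.58.1 (R 4.3.3) fitted 1 mean for each group (residual df 22, prior df 5.86). Two-sided tests used Benjamini-Hochberg adjustment over all 12422 within a comparison and a threshold of 0.05. Positive values mean higher in HCM, on casein or in females, and intervals are 95% confidence intervals. An interaction is a difference of 2 differences, such as HCM minus wild type on casein less that on soy.

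Probe sets were named from the platform annotation: 10833 had 1 symbol, 396 several and 1193 none. For the gene lists, the brightest probe set stood for a gene. The genes named were all members, up to 4 per list with the largest mean HCM difference past the threshold, and the 5 most alike in group means per member. Ankrd2, Csrp2, Crip2, Vcl, Jup, Tead4 and Yap1 were singled out from the lists after their values were seen. Members and lists were chosen with earlier results of these data known. No pair of arrays was identical (correlations 0.930 to 0.997). Alternatives were 1 probe set per gene, leaving out the dimmest 40%, added quantile normalization, centring on the median, a replicate block, array weights, an intensity trend, the array set as a random block (statmod 1.5.0), either casein wild-type set alone, no casein HCM arrays, only the arrays compared, and leaving out each array. The code was tested on simulated data. Promoter windows were read from RefSeq (GRCm38.p6). No genome coordinates are given for probe sets, since no source used here states the authors' build, and no detection calls were made.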

Additional observations from a re-analysis of the deposited data

Results flagged for a closer look

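The HCM difference on casein differed from that on soy in the test of the interaction for 4 probe sets: by 1.06 for Ankrd1, by -0.89 for Xirp1, by 0.31 for Fhl1 97498_at and by -0.21 for Fhl2. The first 2 passed under each alternative that was run for them, and the other 2 did not.

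Of 48 sets of 4 replicate values examined, 4 had an array far from the rest, where chance gives about 1 in 20. Female soy wild-type replicate 4 had Xirp1 at 8.76, with the others at 9.05 to 9.09. Female casein HCM replicate 2 had Xirp1 at 9.02, with the others at 9.13 to 9.15. Male casein wild-type replicate 2 had Fhl1 97499_at at 4.29, with the others at 4.03 to 4.07, and male soy wild-type replicate 2 had it at 4.18, with the others at 3.96 and 3.97.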

How the results depend on the processing

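Precision is limited by 3 or 4 arrays of pooled RNA per group and by the match of array sets with groups. Counts of members in this section stand without the share of all probe sets in the same fit, and are not set against the array. Over the 10 main comparisons, members kept direction and side of the threshold in 791 alternative values and changed in 67 others. Of these, 7 reversed, which means that the sign turned and the main or the alternative value passed. A further 17 turned sign with neither value past the threshold. Among fits without 1 array 2333 stayed and 67 changed. Of those 67, 0 reversed and 27 turned sign with neither value past the threshold.

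With quantile normalization added, the number of members past the threshold was 4 in place of 2 for the mean HCM effect and 4 in place of 8 for the mean diet effect. Reversed diet differences under it were -0.06 (Fhl2) and -0.08 (Csrp3) over all strata, -0.21 (Fhl2), -0.16 (Csrp3) and -0.02 (Ldb3) in HCM, -0.20 (Xirp1) and -0.21 (Fhl2) in male HCM, and -0.21 (Fhl2) and -0.09 (Ldb3) in female HCM; the cause was not tested. A fit lacking the casein HCM arrays holds HCM on soy and diet in wild type alone; there the Xirp1 mean HCM difference was 0.36 and the Ankrd1 mean diet difference -0.23. Array weights gave 4 members for the mean HCM effect and 1 for diet by sex. The array set as a random block gave 1 for HCM on soy, 2 for HCM by diet, 3 for HCM on casein (4 without it), 7 for the mean diet effect (8), 4 for diet in wild type (6) and 5 for diet in HCM (7), and set B alone gave 2 for HCM by diet; the cause was not tested.

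Leaving out each array in turn gave 2 to 3 members for HCM on soy and likewise 2 to 3 for the mean HCM effect, 4 to 4 for HCM on casein, 8 to 8 for the mean diet effect, 6 to 7 for diet in wild type and in HCM, 2 to 4 for HCM by diet (2 without male soy HCM replicate 1) and 0 to 0 for sex and its interactions. Correlations of same-numbered arrays, after group means were taken off, ran from -0.553 to 0.597, and 21 of 99 were over 0.1. They were not compared with those of other pairs, so they do not settle whether replicate numbers pair the samples. In casein wild type the numbers go with sets A and B. With the replicate number as a block, HCM by diet had 3 members (Fhl2 then at -0.20, adjusted p = 0.0581), and the other main counts were those of the fit without the block: 2 for the mean HCM effect, 8 for the mean diet effect.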
